A study of Mus musculus with 250 samples.

Results

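Homeobox and Zic genes are the transcription factor genes that give each stretch of the embryonic neural tube its place along the head-to-tail and back-to-belly axes. They were followed here in 250 single cells from mouse brain, each titled as an astrocyte. The members are the rows of the count table named Irx, En, Hoxa to Hoxd, Lhx, Emx, Otx, Zic, Pax, Nkx, Dlx, Meis or Pbx followed by a number, or as Six5 is, which are 106 of 24490 rows. The members were picked by name, though with earlier results of these data known. The cells form 1 group. They come from the brains of adult C57BL/6 mice that carry SM22-Cre and Rosa26-stop-tdTomato. In such mice Cre is made under the promoter of the smooth muscle gene Tagln and switches on the red protein tdTomato. Fluorescent sorting put 1 cell in each well, and each received a full-length library by the Smart-seq2 method. The sorting gate is not stated in the sources used here. No animal is named, so each sample is 1 cell and there are no known biological replicates. Everything that follows describes these cells, with no test between groups.

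Positional factors are first used in the embryo, where neighbouring domains often hold factors that repress each other and so draw a sharp border. Astrocytes keep some of this code as adults, and those of the cortex, thalamus, midbrain and hindbrain differ in it. Hox proteins mark hindbrain and spinal cord, Irx and En proteins mark mainly midbrain and hindbrain, and Emx, Dlx and Lhx2 proteins mark the forebrain. Meis and Pbx proteins are partners that bind DNA together with Hox and other homeodomain proteins and are used in many tissues. The rule sets these genes beside 3 genes of secreted proteins. Itih3 encodes a heavy chain that attaches to hyaluronan in the matrix, Agt encodes angiotensinogen, and Mfge8 encodes a bridge between dying cells and phagocytes. Itih3 and Agt are usual markers of astrocytes outside the telencephalon, and Mfge8 of astrocytes within it.

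The cells held a median of 282290.5 counted reads, with a range of 102161 to 564958. The cells' names in the table header have the prefixes Brain.VSMC2 or Brain.VSMC3 and a well, called plate 2 and plate 3 here. That they are plates is inferred from this form. VSMC usually stands for vascular smooth muscle cell, whereas the titles say astrocyte. Plate 2 had 162 cells with a median of 256247 reads, and plate 3 had 88 cells with a median of 391071.5 reads. They were treated as technical batches, and relations were computed within each. Levels are CPM, the reads of a gene per 1000000 counted reads of its cell, and detection of a gene means 10 CPM or more. Of the 10 astrocyte markers, 9 were found in 50% of the cells or more, and each cell had at least 6 of them. The 9 mural cell markers, the cell class in which the SM22 promoter is known to act, summed to a mean of 43.3 CPM, against 30541.5 CPM for the astrocyte markers. At least 3 markers of 1 other cell type, oligodendrocytes aside, were found in 16 cells.

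The result that stood apart was for Nkx6-2, a homeodomain repressor of the ventral neural tube that is also known in myelinating oligodendrocytes. It was detected in 74 cells, and those cells had a median of 6876 CPM of Itih3, against 2187 CPM in the 176 cells without it. It was seldom found with Meis1 or Meis2. The regions just before the starts of Nkx6-2, Itih3 and Agt are printed because the levels of these 3 genes moved together over cells. Each holds 250 bases before and 50 bases after the start that RefSeq annotates on GRCm38.p6, read on the gene's own strand, 5′ to 3′. Capitals mark the letters TATAAA, which 13.6% of the 32851 promoters of this length hold on either strand. The Nkx6-2 region is chr7:139582748-139583047, minus strand. The Itih3 region is chr14:30923538-30923837, minus strand. The Agt region is chr8:124569657-124569956, minus strand.
Nkx6-2: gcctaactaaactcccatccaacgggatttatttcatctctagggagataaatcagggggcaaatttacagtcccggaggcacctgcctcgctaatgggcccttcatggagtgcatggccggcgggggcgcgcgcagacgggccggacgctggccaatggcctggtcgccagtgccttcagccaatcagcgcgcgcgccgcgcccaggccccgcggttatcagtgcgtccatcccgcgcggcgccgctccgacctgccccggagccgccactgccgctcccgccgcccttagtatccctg
Itih3: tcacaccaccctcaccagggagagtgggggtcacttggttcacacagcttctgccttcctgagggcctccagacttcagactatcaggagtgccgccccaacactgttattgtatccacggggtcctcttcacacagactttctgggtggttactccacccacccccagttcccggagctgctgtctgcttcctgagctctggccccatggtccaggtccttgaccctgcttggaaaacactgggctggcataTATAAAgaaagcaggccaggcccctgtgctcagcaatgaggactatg
Agt: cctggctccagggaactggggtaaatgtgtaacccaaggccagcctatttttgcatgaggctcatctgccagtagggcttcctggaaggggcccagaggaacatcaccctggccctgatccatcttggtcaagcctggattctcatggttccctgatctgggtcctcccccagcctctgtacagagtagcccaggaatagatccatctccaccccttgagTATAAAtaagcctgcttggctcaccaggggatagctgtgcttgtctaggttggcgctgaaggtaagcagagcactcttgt
The Nkx6-2 region held 32 CpG pairs and 66.7% G and C. The Itih3 region held 3 CpG pairs and the Agt region 1, at 57% and 54.7% G and C. TATAAA was present once in the Itih3 region, with its first base at position 4 counting the start as 1, and once in the Agt region, with its first base at position -30. The core letters TAATTA, which many homeodomains bind, and TGACAG, which Meis proteins bind, were in none of the 3 regions on either strand, and are in 5.29% and 19.2% of all promoters.

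Most positional factors were not detected or rare in these cells. Of the 106 members, 59 had no read in any cell and 6 had reads but never reached 10 CPM. These 6 were Hoxa2, Hoxa5, Hoxc8, Hoxc9, Dlx5 and Nkx2-9. The other 41 were detected in at least 1 cell, which is 87.2% of the 47 members with reads, against 91.5% of all 16367 genes with reads. A share of 10% of the cells or more was reached by 12 members, 25.5% of the 47, against 45.3% of all genes with reads. None reached 125 cells. A further 5 were detected in 10 to 24 cells and 24 in 1 to 9 cells. All members together took 0.06934% of the reads. A gene with 0 of 250 cells may still be detectable in up to 1.2% of such cells, the share that 3 cells would give. Intervals given here are exact 95% binomial ones on counts of cells. They cover counting error only, since reads have no molecular identifiers and the number of animals is not given.

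**Figure D1:**
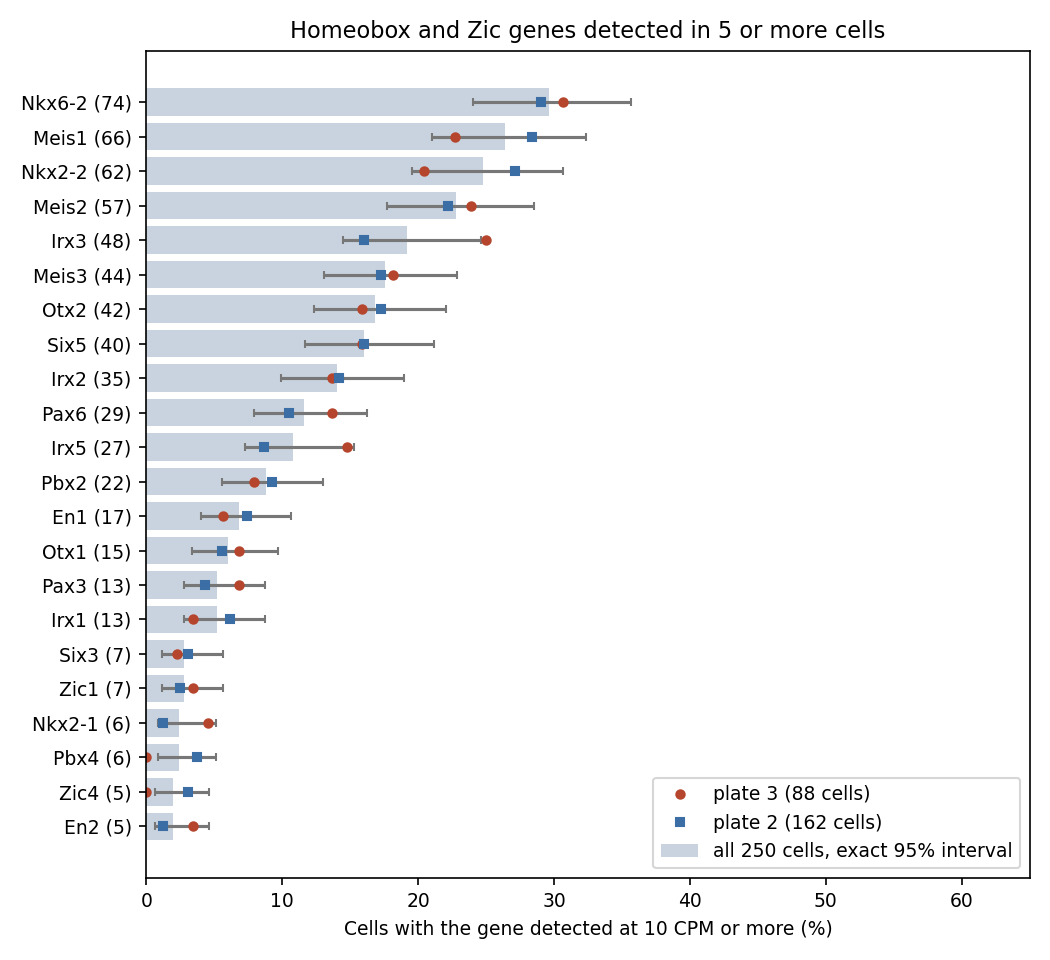
Share of the 250 cells with each factor detected at 10 CPM or more, for 22 of the members detected in 5 or more cells. Bars and whiskers are all cells with exact 95% intervals, points are the plates, and numbers after the names are cells. Nkx6-2 is shown at 29.6% (74 cells) and Meis1 at 26.4% (66 cells), while En2 is at 2% (5 cells).

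Of the cofactors, Meis1, a TALE homeodomain partner of Hox proteins on chromosome 11 (GRCm38, 18879817-19018985, minus strand), was detected in 66 cells, 26.4% (21.05 to 32.32). Its level over all cells ran from 0 through a median of 0 to 937.7 CPM. Meis2 was detected in 57 (22.8%) and Meis3 in 44 (17.6%). Pbx2 was detected in 22 cells and Pbx4 in 6. At least 1 of the 7 Meis and Pbx genes was detected in 188 cells (75.2%). Some detection lay just under the limit, since 74 cells had a read of Meis1.

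The Nkx2 and Nkx6 genes came next. Nkx6-2 lies on chromosome 7 (139579376-139582797, minus strand) and was detected in 29.6% of the cells (24.01 to 35.68), 29.01% on plate 2 and 30.68% on plate 3. Among the cells with it, the lowest level was 11.5 CPM, the median 235.7 CPM and the highest 1849 CPM. Its mean level per kilobase of exon was 50.75 CPM, the highest of the 17 members detected in 10 or more cells, ahead of Six5 at 15.22 CPM per kilobase. Nkx2-2, a factor of the most ventral progenitors and of oligodendrocyte differentiation, was detected in 62 cells (24.8%) at a median of 73.61 CPM in those cells. Nkx2-1, a factor of the ventral forebrain and hypothalamus, was detected in 6 cells.

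Of the 6 Irx genes, 4 were detected, at least 1 of them in 98 cells (39.2%). Irx3 and Irx5 are neighbours on chromosome 8, and Irx1 and Irx2 on chromosome 13. Irx3, which in the embryo marks neural tube from the diencephalon back, was detected in 48 cells (19.2%), 16.05% of plate 2 and 25% of plate 3. Irx2 was detected in 35 cells and Irx5 in 27, with highest levels of 598.1 and 494.2 CPM. Irx1 was in 13 cells and did not pass 64.66 CPM. Otx2, which forms forebrain and midbrain in the embryo, was detected in 42 cells (16.8%), with a median of 211.7 CPM and a highest level of 921.7 CPM in those cells. Its relative Otx1 was in 15 cells. En1 and En2, factors of the midbrain-hindbrain border, were in 17 and 5 cells.

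Pax6, a factor of the eye, dorsal forebrain and cerebellar granule cells, was detected in 29 cells (11.6%), and Pax3, a factor of the dorsal neural tube, in 13. Six5, a broadly expressed factor next to the myotonic dystrophy kinase gene, was detected in 40 cells, and 1 cell held 22.65% of its reads. Six3, an anterior forebrain factor, was in 7 cells. All 5 Zic genes, zinc finger factors of the dorsal neural tube and cerebellum, had reads, and at least 1 was detected in 20 cells (8%). Zic1 was in 7 cells, Zic4 in 5, and Zic2 and Zic5 in 2 each.

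Factors of the cortex and of the spinal cord were seldom detected. Of the 39 Hox rows, 8 had reads and 4 were detected, all of the Hoxa cluster, in 8 cells together (3.2%, 1.391 to 6.208). Hoxa7 was in 4 cells, and Hoxa3 and Hoxa4 in 1 each. The Hoxb and Hoxd rows had no reads. Among the forebrain factors, Lhx2 was detected in 4 cells, Dlx1 in 2 and Emx2 in 1, while Emx1, Dlx2, Lhx6 and Lhx8 had no reads. The 14 forebrain members, Pax6 and Otx1 included, were found in 57 cells (22.8%) and the 50 caudal members, the Irx, En and Hox genes with Pax2, Pax5 and Pax8, in 113 cells (45.2%). Forebrain and caudal members shared 21 cells, where independence within plates would give 26.06.

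Taken cell by cell, with the Meis and Pbx genes set aside, 215 of the 250 cells (86%, 81.07 to 90.05) had at least 1 of the 99 remaining factors. The share was 85.8% on plate 2 and 86.36% on plate 3. None was detected in 35 cells, 1 in 74, 2 in 60, 3 in 53 and 4 or more in 28. The number of factors in a cell had a rank correlation (Spearman rho) of 0.132 on plate 2 and 0.0771 on plate 3 with the number of genes detected. When every cell was thinned to 100000 reads, where the detection limit is 1 read, the share was 88%. Without Nkx6-2, Nkx2-2 and Six5, which were chosen after the values had been seen because they are not tied to 1 head-to-tail level, it was 67.6% (169 cells). Glial transcription factors were more widespread. In a list of 20 of them, 18 reached detection in 10% of the cells and 10 of them in 50%, with Nfia, a gliogenic factor, in 226 cells and Sox9, an astrocyte factor, in 217. The background for the count at 10% is the 45.3% of all genes with reads. The share of all genes found in 50% of the cells was not computed. Of 24 other regional factors, 15 had reads and 4 reached 10% of the cells, a share of those with reads close to that of the members. They were Tcf7l2, a Wnt effector strong in thalamus, in 195 cells, and the nuclear receptors Nr2f1, Nr2e1 and Nr2f2 in 68, 45 and 28.

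Pairs were compared for the 17 members detected in 10 or more cells, which give 136 pairs. The number of cells expected to hold both genes was computed within each plate as if they were independent, and summed. The median observed-to-expected ratio was 0.982. For the 95 pairs with more than 3 expected cells it was 0.988. All pairs of genes with a like number of cells had a median of 1.02 at that limit. Such a median cannot show independence, since pairs above and below the expectation can balance. The pairs found together in 5 or more cells, at 1.5 times the expectation or more and above it on both plates, numbered 12 (8.82%), against 5.19% of all pairs of genes with a like number of cells. None of the 136 pairs had 0 joint cells where more than 3 were expected, which held for 0.219% of all pairs of genes with a like number of cells, and the 9 pairs with 0 joint cells had expectations of at most 1.81. At 0.5 times the expectation or less stood 5 of the 95 pairs with more than 3 expected cells (5.26%), against 4.37% of all such pairs. All other pairs had at least 1 joint cell, so full exclusion of 1 factor by another was not seen in them. For the 9 pairs, too few joint cells were expected to tell. With more than 3 cells expected, a count of 0 was rare among all gene pairs too (0.219%). Its absence here is therefore not particular to these factors.

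**Figure D2:**
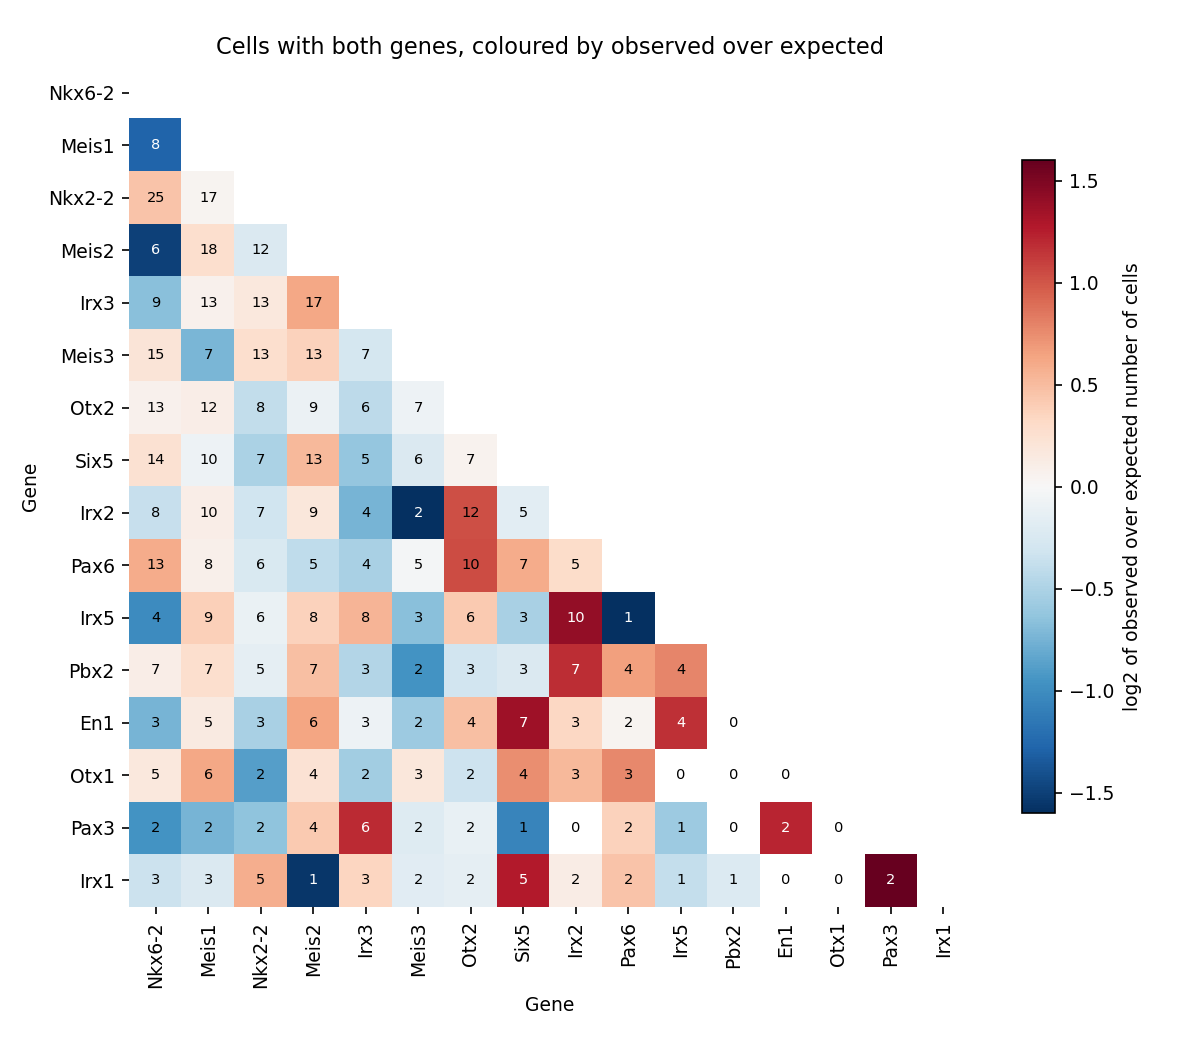
Number of cells in which both genes of a pair were detected (printed), coloured by log2 of observed over expected, for 16 of the 17 members in 10 or more cells; white squares with 0 had no joint cell. The reddest square with at least 5 joint cells is Irx2 with Irx5 (10 cells, 3.76 expected), and the 2 blue squares in the Nkx6-2 column with Meis1 and Meis2 hold 8 and 6 cells.

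Irx2 and Irx5, Iroquois genes of different clusters, were found together in 10 cells, where 3.76 were expected, a ratio of 2.66. The count was 6 against 1.99 expected on plate 2 and 4 against 1.77 on plate 3, and its exact 95% binomial interval of 4.84 to 18.1 cells lay above the expectation. Of the 16 cells with markers of another type, 3 were among these 10. Without those 16 cells the pair had 7 joint cells, where 3.23 were expected, and the interval of 2.83 to 14.2 then included the expectation. Irx3 and Irx5, which share a cluster, had 8 joint cells against 5.50, while Irx3 and Irx2 had 4 against 6.69. The pairs of Irx1 with Irx3, Irx2 and Irx5 had 3, 2 and 1 cells against 2.35, 1.83 and 1.31.

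Otx2 was found with Irx2 in 12 cells, where 5.88 were expected (8 against 3.98 on plate 2, 4 against 1.91 on plate 3, interval 6.26 to 20.6). With Pax6 it was found in 10 cells, where 4.85 were expected. With Irx5, Otx2 was found in 6 cells, where 4.49 were expected, and was below expectation on plate 2 (2 cells against 2.42). Pax6 and Irx5 met in 1 cell, where 3.24 were expected. Among pairs with 5 or more joint cells, the others of the 5 highest ratios were Six5 with En1 (7 cells, 2.72 expected), Six5 with Irx1 (5, 2.08 expected), Irx3 with Pax3 (6, 2.62 expected) and Irx2 with Pbx2 (7, 3.08 expected). The rest of the 12 were Meis2 with Irx3 (17 cells, 11.0 expected), Nkx6-2 with Pax6 (13, 8.61 expected), Six5 with Pax6 (7, 4.64 expected), Meis1 with Otx1 (6, 3.92 expected) and Nkx2-2 with Irx1 (5, 3.33 expected). For 5 of the 136 pairs the expectation lay outside the interval of the joint count. In 3 of them, Irx2 with Irx5, Otx2 with Irx2 and Six5 with En1, the count was above it. The share of all gene pairs for which this holds was not computed. Some independent pairs also fall outside such intervals, so these 5 pairs are given as descriptions.

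The 2 pairs with fewer cells than the interval allows both held Nkx6-2. It was found with Meis2 in 6 cells, where 16.9 were expected, a ratio of 0.355 with an interval on the count of 2.21 to 12.9. With Meis1 it was found in 8 cells, where 19.5 were expected, a ratio of 0.411 with an interval of 3.48 to 15.5. The size changed with the detection limit and with thinning to 100000 reads, where 10 CPM is 1 read. Thinning thus changed the limit in reads along with the depth. At 1 read the ratios were 0.496 for Meis2 and 0.683 for Meis1, and in cells thinned to 100000 reads they were 0.531 (10 cells, 18.8 expected) and 0.55 (12 cells, 21.8 expected), with the intervals still below the expectation. At 10 CPM both were below expectation on each plate, with 4 against 10.4 and 2 against 6.44 cells for Meis2 on plates 2 and 3, and 4 against 13.3 and 4 against 6.14 for Meis1. At least 1 of these 2 Meis genes was detected in 13 cells with Nkx6-2, where 31.1 were expected. With Meis3, Nkx6-2 was found in 15 cells, where 13 were expected. The remaining low pairs were Meis3 with Irx2 (2 cells, 6.16 expected) and Nkx6-2 with Irx5 (4 cells, 8.05 expected).

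Other pairs within a family lay nearer to independence. Nkx6-2 and Nkx2-2, both ventral factors, met in 25 cells against 18.3 expected. Meis1 and Meis2 met in 18 against 15, Meis2 and Meis3 in 13 against 10, and Meis1 and Meis3 in 7 against 11.6. Otx1 and Otx2 met in 2 cells against 2.51, and Pax6 and Pax3 in 2 against 1.55. The median ratio of the 13 same-family pairs was 1.2. Below the limit of 10 cells, Zic1 and Zic4, which lie head to head on chromosome 9, met in 3 cells against 0.123 expected. Their exons share 60 bases on opposite strands, and reads there cannot be told apart without a strand setting.

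Relations to the secreted genes were asked next. Itih3 was detected in 242 cells at 4189 ± 4053 CPM, Agt in 247 at 4320 ± 2842 CPM, and Mfge8 in 244 at 2274 ± 1863 CPM (mean ± SD over 250 cells). A member was said to relate to one of them where the mean of its 2 within-plate rho values was 0.2 or more in size with the same sign on both plates. For Itih3 this held for 2 of 17 members (11.8%), against 1.49% of 10097 genes detected in 10 or more cells. The 2 were Nkx6-2, with a positive rho (0.901% of genes), and Meis2, with a negative one (0.584% of genes). For Agt it held for Nkx6-2 (5.88% of 17), with a positive rho, against 1.21% of genes, of which 0.693% were positive and 0.515% negative. For Mfge8 it held for none of the 17, against 0.654% of genes, of which 0.505% were positive and 0.149% negative. The median rho of the 17 members was -0.0186 with Itih3, 0.0274 with Agt and 0.0101 with Mfge8.

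**Figure D3:**
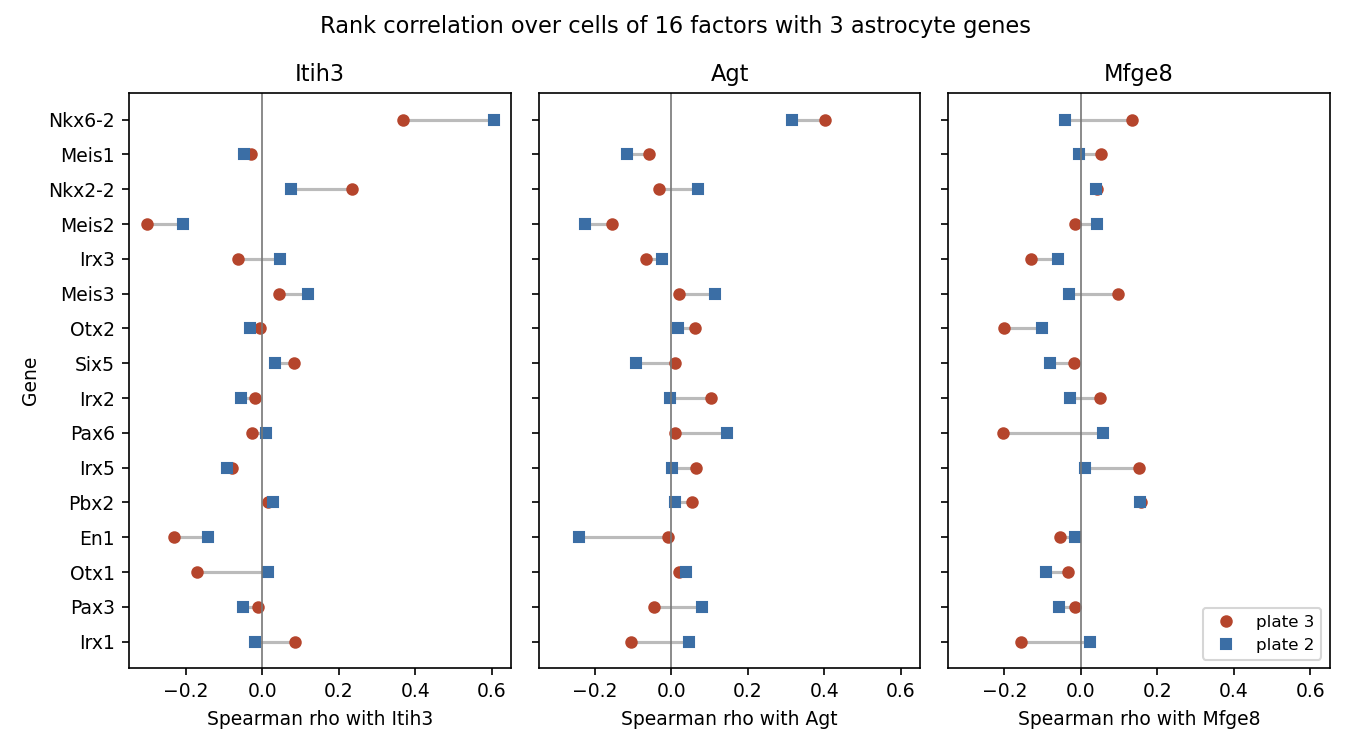
Spearman rho over cells of 16 of the 17 members with Itih3, Agt and Mfge8, computed on plate 3 (circles, 88 cells) and plate 2 (squares, 162 cells). Nkx6-2 stands to the right for Itih3 (0.368 and 0.606) and Agt (0.402 and 0.316), Meis2 to the left for Itih3 (-0.302 and -0.207), and most other members lie around 0.

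Nkx6-2 had the highest mean rho with Itih3 of all 10097 genes, 0.487, with 0.606 on plate 2 (first of the genes) and 0.368 on plate 3 (place 18). After it came Slc1a3, a glutamate transporter, at 0.475, Sparc, a secreted matrix protein, at 0.446, and Agt at 0.433. In the 74 cells with Nkx6-2, Itih3 ran from 150.3 through a median of 6876 to 20037.8 CPM. In the 176 cells without it, Itih3 ran from 0 through 2187 to 27076.9 CPM, a ratio of medians of 3.14. The ranges overlap widely, although the lower quartile of the cells with Nkx6-2, 3521 CPM, was close to the upper quartile of the cells without it, 3598 CPM. The medians were 7243 against 2147 CPM on plate 2 and 6015 against 2217 CPM on plate 3. Within the cells that had Nkx6-2 its level tracked Itih3 less, with rho of 0.263 and 0.144 on plates 2 and 3.

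**Figure D4:**
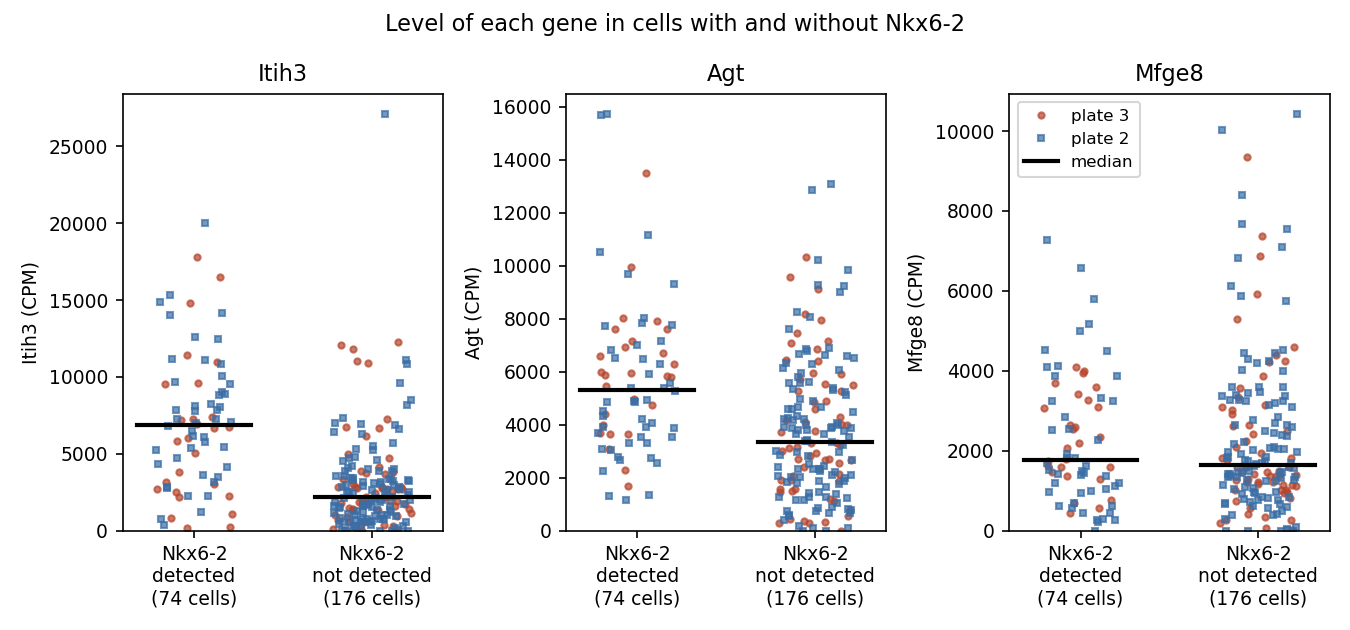
Level of Itih3, Agt and Mfge8 in CPM in the 74 cells with Nkx6-2 and the 176 cells without it. Each point is a cell, the colour is its plate and the black line is the median, at 6876 against 2187 CPM for Itih3, 5317 against 3359 CPM for Agt and 1770 against 1643 CPM for Mfge8.

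Agt followed the same order with a smaller difference. Its rho with Nkx6-2 was 0.316 on plate 2 and 0.402 on plate 3, a mean of 0.359 and place 7 of 10097 genes. Agt ran from 1158 through 5317 to 15713.1 CPM in cells with Nkx6-2, and from 0 through 3359 to 13066.4 CPM in cells without it, a ratio of medians of 1.58. Mfge8 had medians of 1770 CPM with and 1643 CPM without Nkx6-2, and its rho had opposite signs on the plates, -0.0417 and 0.134.

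The cells were next ordered by Itih3 within each plate and cut into 4 bins of nearly equal size. Low to high, the bins held Nkx6-2 in 7 of 62 cells (11.29%), 8 of 63 (12.7%), 18 of 62 (29.03%) and 41 of 63 (65.08%, 52.03 to 76.66). The step was mainly at the top bin, where most cells had the gene. Meis2 ran the other way, with 24 of 62 cells (38.71%), 15 of 63, 15 of 62 and 3 of 63 (4.762%), and none of the 22 top-bin cells of plate 3. Meis1, which was also seldom found with Nkx6-2, had 16, 16, 21 and 13 cells in the 4 bins. By Agt, the bins held Nkx6-2 in 5, 18, 23 and 28 cells.

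**Figure D5:**
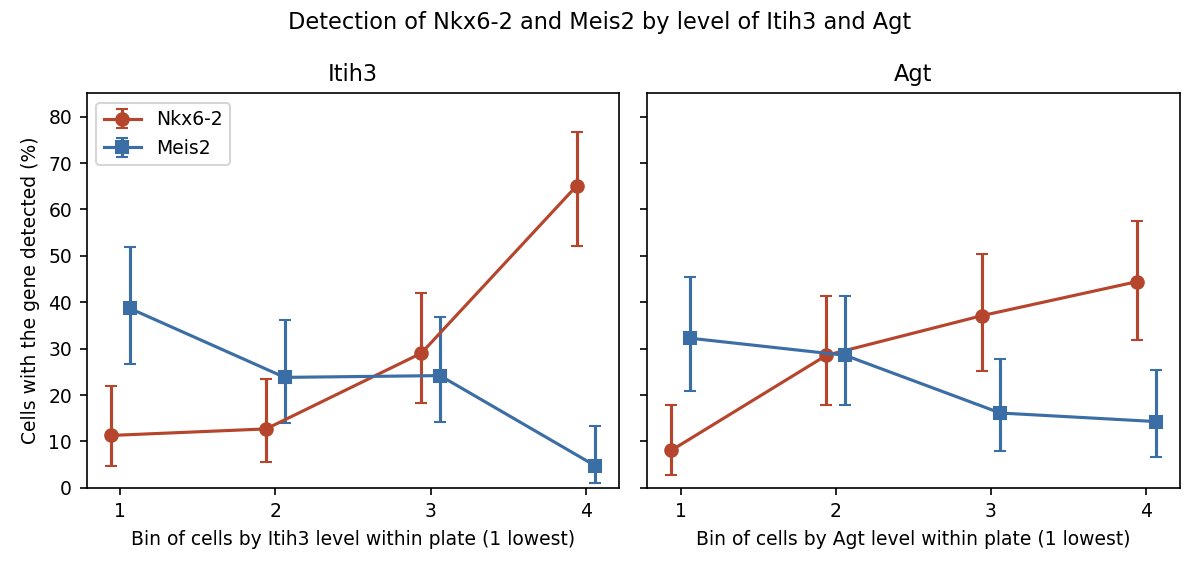
Share of cells with Nkx6-2 and Meis2 in each of 4 bins of cells ordered by Itih3 or Agt within the plate, 1 being the lowest, with exact 95% intervals. For Itih3, Nkx6-2 stands at 11.29% in the lowest bin and 65.08% in the highest, and Meis2 at 38.71% and 4.762%.

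Meis2 had a mean rho of -0.254 with Itih3, place 19 from the bottom of the 10097 genes. With Pearson correlation of log2(CPM + 1) it was -0.163 (-0.0878 on plate 2 and -0.237 on plate 3), which is under the limit of 0.2, so the relation rests on the rank measure. Itih3 had a median of 1894 CPM in the 57 cells with Meis2 and 3279 CPM in the 193 cells without it. With Agt the mean rho was -0.19, short of the limit, with medians of 2822 and 4204 CPM. Neuron markers were found in a few of the cells with Meis2. At least 3 of the 9 were detected in 6 of the 57 cells with Meis2 and 3 of the 193 without it, and they summed to means of 221 and 103.1 CPM but to medians of 15.68 and 15.95 CPM. Without the 16 cells with at least 3 markers of 1 other type, oligodendrocytes aside, the mean rho with Itih3 was -0.273. Cells with fewer neuron markers were kept, and their part in the relation was not tested. To see both genes at once, the cells were split by Nkx6-2 and by Meis1 or Meis2, a split chosen after the values had been seen. The median of Itih3 was 7198 CPM in 61 cells with Nkx6-2 alone and 6132 CPM in 13 cells with Nkx6-2 and a Meis gene. It was 1958 CPM in 92 cells with a Meis gene alone and 2518 CPM in 84 cells with neither. The plates disagreed on the 13 cells, with medians of 7042 CPM in 7 cells of plate 2 and 2708 CPM in 6 cells of plate 3. Cells with neither had 2183 and 2710 CPM on plates 2 and 3.

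The remaining 15 members had no such relation with any of the 3 genes. En1 came nearest, with a mean rho of -0.187 with Itih3 and medians of 1628 CPM in 17 cells with it and 3036 CPM in the others. Nkx2-2 had 0.0742 on plate 2 and 0.236 on plate 3. The commonest Irx and Otx genes had medians of Itih3 close to the rest, 2993 CPM in cells with Irx3 and 2853 CPM in cells without it, and 2756 and 2922 CPM for Otx2. Irx3, Irx2 and Irx5 were however least often found in the top Itih3 bin, but unlike Meis2 they were not commonest in the lowest bin. Low to high, the bins held Irx3 in 9, 14, 19 and 6 cells, Irx2 in 7, 10, 15 and 3, and Irx5 in 8, 9, 8 and 2. Otx2 was spread evenly, with 10, 13, 9 and 10 cells. For Mfge8 the highest mean rho was that of Pbx2, 0.156, and the lowest that of Otx2, -0.151.

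Beside these values, cells with and without Nkx6-2 had median totals of 300162.5 and 273592 reads and medians of 2389.5 and 2405 detected genes. The 8 oligodendrocyte markers summed to medians of 967 and 764.6 CPM, and at least 3 of them were found in 7 of 74 and 24 of 176 cells. Mbp, the myelin basic protein gene, was detected in 16.22% of the cells with Nkx6-2 and 27.27% of those without it. Cnp, another of the 8, was detected in 77.03% and 76.14%, with higher medians in the cells with Nkx6-2 (406.3 against 310.2 CPM). The difference was mainly on plate 3 (421.8 against 222.8 CPM), while on plate 2 the medians were close (393.9 against 387.7 CPM). Next, the 44 cells with at least 3 markers of the same other type, oligodendrocytes included, were left out. The mean rho of Nkx6-2 with Itih3 was then 0.469. Cells with fewer such markers were kept. The choroid plexus list summed to means of 83.29 and 13.71 CPM with and without Nkx6-2, nearly all of it Clic6, a chloride channel gene found in 23 cells, while Ttr, which defines choroid plexus, had no reads. The part of Clic6-bearing cells in the result was not tested.

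Nkx6-2 overlaps Inpp5a, a phosphatase gene on the opposite strand, over 246 of its 1907 exon bases, and the counting's strand setting is not stated. Inpp5a was detected in 42 cells, 19 of them with Nkx6-2 where 12.3 were expected, and its own rho with Itih3 was 0.0892 on plate 2 and 0.0706 on plate 3. Nkx2-2 likewise overlaps its antisense transcript Nkx2-2os, which was found in 6 cells.

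The genes whose levels were most alike Nkx6-2, by the lower of the 2 plates' rho, were Slc1a3 (0.386 and 0.377 on plates 2 and 3), Itih3 and Apoe, the lipid carrier gene (0.359 and 0.436). Apoe had medians of 22269.8 CPM in cells with Nkx6-2 and 16112.7 CPM in cells without it, and Slc1a3 had 5485 and 3205 CPM. Some genes were chosen after their values had been seen. Sparc had medians of 4203 CPM with Nkx6-2 and 2214 CPM without it. Itih3, Agt and Sparc belong to a list of 5 markers of astrocytes outside the telencephalon. Its other genes differed less, with medians of 4920 and 4014 CPM for Slc6a11 and 955.1 and 948.7 CPM for Slc6a9. Hes5, a Notch target, was detected in 64.86% of the cells with Nkx6-2 and 37.5% of the others, and Nr2f2 in 21.62% and 6.818%. Id4, like Hes5 on the list of glial factors, went the other way, with 29.73% and 47.73%. Not every astrocyte gene was higher, since Aqp4, the endfoot water channel, had 1482 CPM with Nkx6-2 and 2375 CPM without it, and was lower with Nkx6-2 on both plates. Among the other members, Pax6 was most like Pla2g7, a phospholipase gene, with rho of 0.292 and 0.416. The closest genes of the rest had a lower-plate rho of at most 0.252. Correlations of this size at sparse counts are weak and are given as descriptions.

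As a set, the members showed little common shift between the plates, but single members differed. The median log2 ratio of mean CPM of plate 3 over plate 2 was -0.11 for the 17 members and -0.03 for all genes in 10 or more cells. A difference of 2-fold or more was seen for 3 of the 17 (17.6%), against 14.3% of those genes. These were Pax3 and Pax6, higher on plate 3 by log2 ratios of 1.75 and 1.06, and Otx1, lower on plate 3 by a log2 ratio of -1.38. Several others came near 2-fold, among them Otx2 (-0.987), Irx1 (-0.904), Nkx2-2 (-0.879), Irx5 (0.904) and Meis2 (0.807).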

How the data were processed

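Single cells of 1 group were measured with Smart-seq2, per the labels' protocols. The authors deposited whole-number read counts per gene and cell. STAR 2.4.2a and build mm10 were used, per the submitters' processing notes, while the counting tool, the strand setting and the cell filter are not stated. The authors' second, scaled table was not used. No cell was removed and no doublet caller was run, since cells were sorted into single wells. CPM, shares, exact intervals, Spearman correlations and expected joint counts were computed from the counts in Python 3.11.15 with numpy 2.4.6, scipy 1.17.1 and pandas 2.3.3, and the code was tested on simulated data. Expected joint counts and correlations were made within each plate. Gene positions are from GENCODE M21 on GRCm38, the assembly that mm10 names, and promoters are from RefSeq, which held 12 of the 17 members in 10 or more cells. The members and lists were chosen with earlier results of these data known. Values are given for members in 20 or more cells, same-family pairs and the 5 highest and 5 lowest pairs. Other choices made with the values in view are named as such. Alternatives were another detection limit, thinned reads, other totals, single plates, other correlations and left-out cells. Values of some genes that this rule names are left out.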

Additional observations from a re-analysis of the deposited data

How the results depend on the processing

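Across the alternatives, members in 10% of the cells numbered 10 to 14, and no pair with more than 3 expected cells was without a joint cell in any of them. The share of cells with a positional factor was 73.2% at a detection limit of 50 CPM. The pairs found together numbered 7 at 50 CPM, 6 on plate 3 alone and 7 among members in 20 or more cells, and up to 17 elsewhere. Members related to Agt numbered 3 on plate 2 alone, those related to Mfge8 1 on plate 3 alone, and those related to Itih3 1 with Pearson correlation of log2(CPM + 1), which left Meis2 out. The correlation of Nkx6-2 with Itih3 ran from 0.344 (Pearson, place 5 of 10097 genes) to 0.606 (plate 2 alone), and that of Meis2 from -0.302 (plate 3 alone) to -0.163 (Pearson). Observed-to-expected ratios ran from 2.17 to 3.43 for Irx2 with Irx5, 0.31 to 0.531 for Nkx6-2 with Meis2 and 0.3 to 0.683 for Nkx6-2 with Meis1. None of these changed direction. No paired analysis was possible because the cells form 1 group. Few joint cells limit what the pairs can show, and a gene that was not detected in a cell is not shown to be absent from it.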

Other observations

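Antisense and opposite-strand RNAs named after members lie outside the rule for members. Six3os1, the long RNA on the opposite strand beside Six3, was detected in 17 cells with a highest level of 700.9 CPM, while Six3 itself was in 7 cells, and the 2 were found together in 1 cell. Nkx2-2os was detected in 6 cells, Otx2os1 in 4 and Lhx1os in 1, while Pax6os1, Dlx1as, Dlx6os1 and Hoxa11os had no reads.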
